A study of Mus musculus with 10 samples.

Results

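The genes described here were lower in mouse epidermal cells labelled as knockouts of a Polycomb subunit. They are Kctd12, Dnase1l3, Smim1, Pdzk1ip1, Arrdc3 and Adh6a, 6 of the 18502 genes in the table of the Eed libraries and 6 of the 18344 genes in the table of the Ring1 libraries. They were chosen by name from genes seen to be lower, with no overlap between knockout and control libraries, in at least 1 of the 2 knockouts. The knockout and control values of each table therefore selected them, and those values are given below as a description, without a test.

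The study measured RNA by sequencing in cells of the interfollicular epidermis of mouse back skin, sorted as EpCAM-positive, Sca1-positive and high in α6-integrin, the surface profile of basal keratinocytes. Its title names the part of the Polycomb complexes in skin pigmentation as the question. Compared were Eed KO (genotype Eed -/-, n = 3), set against Eed control (n = 3), and Ring1a/b 2KO (genotype Ring1a-/- Ring1b-/-, n = 2), set against Ring1 control (n = 2). Every mouse, controls included, was at postnatal day 71 when its cells were collected, and per the shared treatment protocol each received 100 µl of 4-hydroxytamoxifen in ethanol at 20 mg/ml daily for 4 days from postnatal day 50. Controls carry no genotype beyond the word control, and no source used here names the driver of the inducible recombinase or the cells in which it acts. The 2 tables were normalized separately, so levels were compared within a table only. The labels do not say whether each library came from a separate mouse, so the p-values below measure the spread between these samples, which may be technical.

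Polycomb repressive complex 2, of which Eed is a core subunit, places methyl groups on lysine 27 of histone H3. Polycomb repressive complex 1, whose ubiquitin ligase subunits are Ring1a (gene Ring1) and Ring1b (gene Rnf2), marks histone H2A and compacts chromatin. Both complexes are known as repressors of developmental genes in skin and other tissues, so genes that are lower without them are the less usual direction, and many Polycomb targets have promoters rich in CpG.

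The promoters of the lower genes ranged from among the CpG-richest of the mouse genome to among the poorest. The RefSeq windows used run from 250 bases before to 50 bases after a RefSeq start on GRCm38.p6, and 5 of the 6 genes had an entry. Dnase1l3 had none. Arrdc3 had 3 entries, and that nearest its start in GENCODE M21 was used. The RefSeq start of Smim1 lay 186 bases from its GENCODE start, and that of each other gene lay at it. Of 32851 such windows the median held 7 CpG dinucleotides, with quartiles at 3 and 20. Kctd12 held 45 CpG, at percentile 98.1, and Arrdc3 held 35, at percentile 93.0. Smim1 held 10, Pdzk1ip1 held 3 and Adh6a held 2, the last at percentile 14.1. The windows of Kctd12 (chr14:102982588-102982887, minus strand, GRCm38.p6) and Adh6a (chr3:138313036-138313335, plus strand, GRCm38.p6) are printed 5′ to 3′ because they are the 2 ends of that range, with each CpG in capitals.
Kctd12: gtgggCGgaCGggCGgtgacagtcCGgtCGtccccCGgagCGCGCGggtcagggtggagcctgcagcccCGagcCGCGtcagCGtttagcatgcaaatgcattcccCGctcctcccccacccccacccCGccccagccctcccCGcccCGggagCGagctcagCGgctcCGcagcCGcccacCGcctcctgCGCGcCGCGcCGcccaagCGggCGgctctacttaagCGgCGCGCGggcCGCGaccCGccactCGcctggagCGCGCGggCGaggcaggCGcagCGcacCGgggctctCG
Adh6a: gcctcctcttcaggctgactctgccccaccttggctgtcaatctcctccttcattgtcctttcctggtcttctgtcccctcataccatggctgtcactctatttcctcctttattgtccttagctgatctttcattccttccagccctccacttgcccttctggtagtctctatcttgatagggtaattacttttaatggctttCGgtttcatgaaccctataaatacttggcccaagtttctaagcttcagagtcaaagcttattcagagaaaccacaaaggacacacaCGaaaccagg

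**Figure D1:**
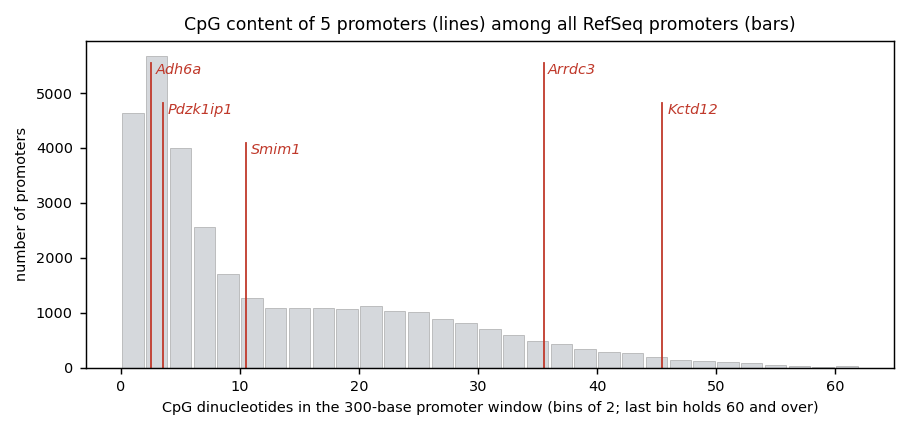
Histogram of the number of CpG dinucleotides (horizontal axis) in RefSeq promoter windows of 300 bases, with the number of promoters on the vertical axis and a line for each of the 5 genes with an entry. Kctd12 at 45 and Arrdc3 at 35 lie in the right tail, and Pdzk1ip1 at 3 and Adh6a at 2 lie at the left end.

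The 5 windows shared no single searched motif. Both strands were searched for short exact motifs, which can overlap one another. The GC box GGGCGG was in the windows of Kctd12, Smim1 and Arrdc3, and in 35.7% of all windows. The TATA box TATAAA was in that of Adh6a alone among the 5 and can be read in the sequence printed above, and 13.6% of all windows held it. The E-box CACGTG was in that of Pdzk1ip1 (7.15% of all windows) and CCAAT in that of Arrdc3 (37.4%). The AP-1 motif TGACTCA, the FOXO motif TGTTTAC and the glucocorticoid receptor motif AGAACA were in none of the 5, and in 5.20%, 3.65% and 19.0% of all windows. These are matches of letters and say nothing of which factors bind.

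Reads recovered from the deposited values came to between 31699979 and 40701183 per library in the Eed table, against 19814853 and 6237389 in the Ring1a/b 2KO libraries and 25158144 and 7162907 in the Ring1 controls. Ring1a/b 2KO library 2 was the shallowest and stood apart from the other libraries, so the fitted fold changes, correlations and list medians of the Ring1 table are also given without it. All 12 basal keratinocyte markers had reads in all 10 libraries. Of 15 Langerhans and other myeloid markers, 12 to 15 had reads in a library, and their summed normalised read count was 6677 to 10155 in Eed KO and 5403 to 9329 in Eed control, and 1581 to 2899 in Ring1a/b 2KO and 2172 to 2766 in Ring1 control. Epcam, a marker of the sort and also a basal keratinocyte marker, is on that list. Epcam alone had 3597 to 5886 in Eed KO and 3819 to 5708 in Eed control. It had 938 to 1845 in Ring1a/b 2KO and 1203 to 1767 in Ring1 control. The sum is therefore no measure of myeloid cells alone. The whole-gene counts of the deleted genes overlapped between the groups. Eed had 1412, 1143 and 1340 normalised read counts in Eed KO and 1845, 1319 and 1706 in Eed control, Ring1 had 104 and 115 in Ring1a/b 2KO and 66.2 and 211 in Ring1 control, and Rnf2 had 720 and 529 in Ring1a/b 2KO and 675 and 669.7 in Ring1 control. A count over a whole gene need not show a deleted exon, so these values do not check the genotype labels. Itga6, the α6-integrin of the sort, had 35578, 49853 and 51631 in Eed KO and 62777, 49958 and 60880 in Eed control, and 9738 and 9343 in Ring1a/b 2KO and 17301 and 13462 in Ring1 control. The groups of Itga6 overlapped in the Eed table and were apart in the Ring1 table, and its part in the results below was not tested. By limma on log2(normalised read count + 1), with Benjamini-Hochberg adjustment, 0 of 16122 genes passed an adjusted p of 0.05 in Eed KO (0.0%), with 762 at an unadjusted p under 0.05. In Ring1a/b 2KO 6 of 15310 passed (0.0392%), 1 of them lower, the Y-linked gene Uty. That count was 13 without Ring1a/b 2KO library 2, 565 without Ring1a/b 2KO library 1 and 0 without either Ring1 control. The authors' deposited table called more, with 9 genes lower (0.0539% of 16684) and 118 higher (0.707%) in Eed KO, and 48 lower (0.31% of 15498) and 183 higher (1.18%) in Ring1a/b 2KO.

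In Eed KO, 5 of the 6 genes lay below every Eed control library, all but Adh6a, where 4.15% of all 16122 tested genes did so. In Ring1a/b 2KO, 5 of 6 lay below both Ring1 controls, all but Pdzk1ip1, where 21.5% of all 15310 tested genes did so. Kctd12, Dnase1l3, Smim1 and Arrdc3 were lower without overlap in both knockouts, as were 1.78% of the 15096 genes tested in both tables. Since the absence of overlap chose the 6 genes, nothing is read from these shares. The authors' deposited table called the same 5 genes lower in Eed KO, and Kctd12 and Adh6a lower in Ring1a/b 2KO. In bulk RNA, fewer cells of a type that expresses a gene and less RNA per cell cannot be told apart.

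**Figure D2:**
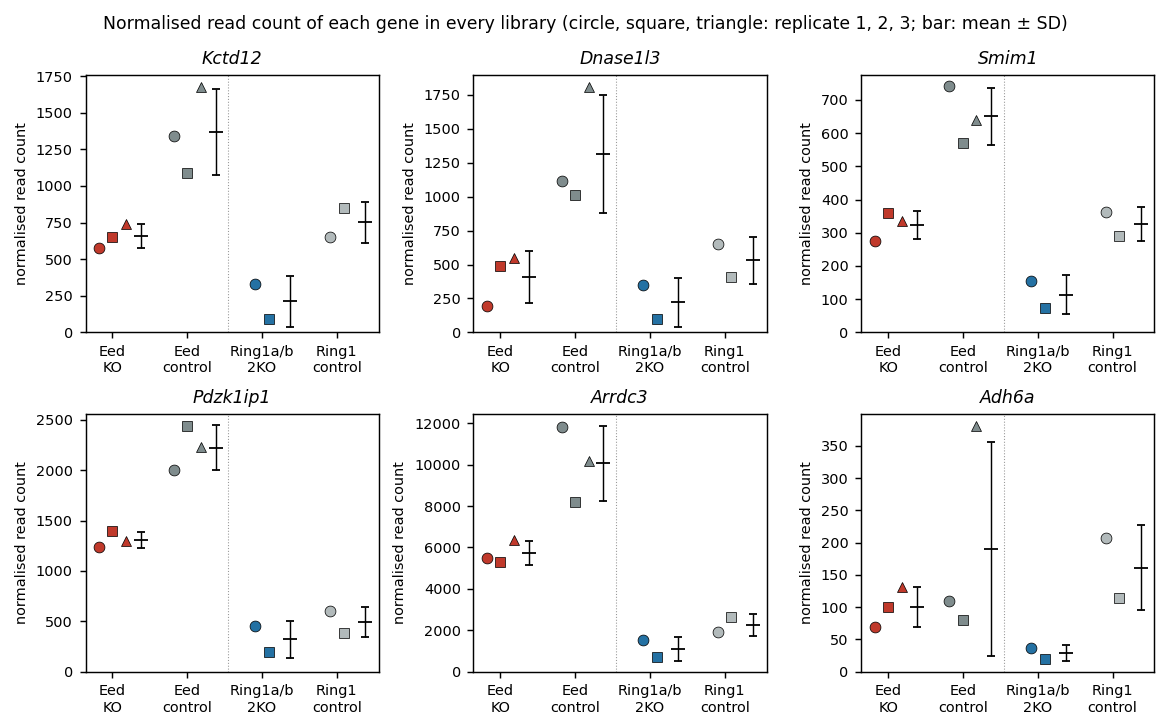
Normalised read count of each gene (linear vertical axes from 0) by library, with Eed KO left of Eed control and Ring1a/b 2KO left of Ring1 control, each point 1 library and each bar a group mean ± SD. The groups are apart for every gene except Adh6a in the Eed table and Pdzk1ip1 in the Ring1 table.

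Among the genes that act at receptors and their traffic, Kctd12 encodes an auxiliary subunit of GABA-B receptors that changes how fast their signal fades. Kctd12 had 579, 653 and 739 normalised read counts in the Eed KO libraries and 1338, 1091 and 1679 in the Eed controls. It had 334 and 89.7 in the Ring1a/b 2KO libraries and 650 and 851 in the Ring1 controls. Every knockout library lay below every control library of its table, and the lowest of the 4 Ring1 libraries was Ring1a/b 2KO library 2. The mean was 657 ± 80.1 in Eed KO and 1369 ± 295 in Eed control (SD, n = 3 each), 2.08-fold lower, and 212 ± 173 in Ring1a/b 2KO and 750.5 ± 142 in Ring1 control (SD, n = 2 each), 3.54-fold lower. The fitted log2 fold change was -1.04 (SE 0.222) in Eed KO and -2.10 (SE 0.715) in Ring1a/b 2KO, and -1.15 without Ring1a/b 2KO library 2.

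Arrdc3 encodes an alpha-arrestin, an adaptor that brings ubiquitin ligases of the NEDD4 family to membrane receptors. Arrdc3 had 5505, 5275 and 6382 normalised read counts in Eed KO and 11834, 8196 and 10168 in Eed control. It had 1507 and 694 in Ring1a/b 2KO and 1897 and 2636 in Ring1 control. The groups did not overlap in either table, although in the Ring1 table the lower control was only 1.26 times the higher knockout library. The mean was 5721 ± 584 in Eed KO and 10066 ± 1821 in Eed control (SD, n = 3 each), 1.76-fold lower, and 1101 ± 575 in Ring1a/b 2KO and 2266 ± 523 in Ring1 control (SD, n = 2 each), 2.06-fold lower. The fitted log2 fold change was -0.80 (SE 0.197) in Eed KO and -1.13 (SE 0.401) in Ring1a/b 2KO, and -0.57 without Ring1a/b 2KO library 2.

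Of the small membrane proteins, Smim1 encodes the protein that carries the Vel blood group in human red cells. Smim1 had 276, 359.9 and 335 normalised read counts in Eed KO and 742, 571 and 639 in Eed control. It had 155 and 73.5 in Ring1a/b 2KO and 364 and 289 in Ring1 control. No knockout library reached a control library in either table, and the Eed libraries of a group lay close together. The mean was 323 ± 43.1 in Eed KO and 651 ± 86.1 in Eed control (SD, n = 3 each), 2.01-fold lower, and 114 ± 57.3 in Ring1a/b 2KO and 326 ± 52.6 in Ring1 control (SD, n = 2 each), 2.86-fold lower. The fitted log2 fold change was -1.01 (SE 0.235) in Eed KO and -1.60 (SE 0.392) in Ring1a/b 2KO, and -1.06 without Ring1a/b 2KO library 2.

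Pdzk1ip1 encodes MAP17, a small membrane protein that binds the PDZ-domain protein PDZK1 and acts in the kidney with a sodium-glucose transporter. Pdzk1ip1 had 1236, 1393 and 1293 normalised read counts in Eed KO and 1998, 2440 and 2229 in Eed control. It had 451 and 192 in Ring1a/b 2KO and 599 and 386 in Ring1 control. The Eed groups were apart, whereas Ring1a/b 2KO library 1 lay above Ring1 control library 2. The mean was 1307 ± 79.3 in Eed KO and 2222 ± 221 in Eed control (SD, n = 3 each), 1.70-fold lower, and 322 ± 183 in Ring1a/b 2KO and 492 ± 151 in Ring1 control (SD, n = 2 each), 1.53-fold lower. The fitted log2 fold change was -0.76 (SE 0.170) in Eed KO and -0.70 (SE 0.450) in Ring1a/b 2KO, and -0.09 without Ring1a/b 2KO library 2.

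Of the enzymes, Dnase1l3 encodes a secreted deoxyribonuclease that digests the DNA of dying cells and whose loss causes lupus-like disease in mice and people. Dnase1l3 had 192, 488 and 549.9 normalised read counts in Eed KO and 1115, 1015 and 1811 in Eed control. It had 349 and 95.03 in Ring1a/b 2KO and 651 and 409 in Ring1 control. The groups did not overlap in either table, and the gap was narrow in the Ring1 table, where the lower control was 1.17 times the higher knockout library. The mean was 410 ± 191 in Eed KO and 1314 ± 434 in Eed control (SD, n = 3 each), 3.20-fold lower, and 222 ± 180 in Ring1a/b 2KO and 529.7 ± 171 in Ring1 control (SD, n = 2 each), 2.38-fold lower. The fitted log2 fold change was -1.77 (SE 0.405) in Eed KO and -1.49 (SE 0.731) in Ring1a/b 2KO, and -0.56 without Ring1a/b 2KO library 2.

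Adh6a encodes a member of the medium-chain alcohol dehydrogenases, the family that oxidises alcohols and includes enzymes of retinol. Adh6a had 69.5, 99.6 and 132 normalised read counts in Eed KO and 109, 80.1 and 381 in Eed control. It had 37.1 and 19.7 in Ring1a/b 2KO and 207 and 115 in Ring1 control, where the 2 knockout values rest on 60 and 11 reads. The Ring1 groups were far apart, while the Eed groups overlapped and the high Eed control mean came from library 3 alone. The mean was 100.3 ± 31.1 in Eed KO and 190.2 ± 166 in Eed control (SD, n = 3 each), 1.90-fold lower, and 28.4 ± 12.3 in Ring1a/b 2KO and 161 ± 65.5 in Ring1 control (SD, n = 2 each), 5.67-fold lower. The fitted log2 fold change was -0.62 (SE 0.575) in Eed KO, and 0.053 without Eed control library 3. In Ring1a/b 2KO it was -2.47 (SE 0.525), and -2.03 without library 2 of that group.

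**Figure D3:**
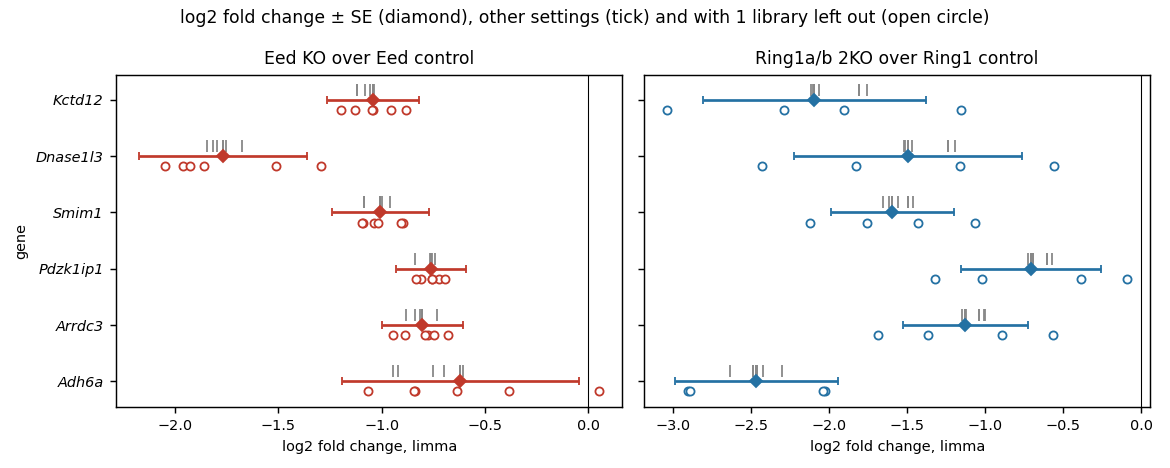
Fitted log2 fold change of each gene in Eed KO and in Ring1a/b 2KO, as diamonds with bars of ± SE, with ticks for other processing settings and open circles for fits with 1 library left out. All values lie below 0 except 1 for Adh6a in Eed KO, at 0.053.

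Close to the boundary of the choice, the genes that the authors' deposited table called lower with the narrowest gap between groups in Eed KO were Arrdc3, where the lowest control was 1.28 times the highest knockout library, Pdzk1ip1 at 1.43 times and Elmod1 at 1.44 times. The narrowest in Ring1a/b 2KO were Nr1d1 at 1.39 times, Il6ra at 1.65 times and Itih5 at 1.69 times. No gene called lower with a mean of at least 50 lay outside the boundary, since all 8 in Eed KO and all 39 in Ring1a/b 2KO were free of overlap. Of the 6 genes themselves, Adh6a in Eed KO at 0.608 times and Pdzk1ip1 in Ring1a/b 2KO at 0.854 times lay outside it.

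Levels were ordered per kilobase of the median coding transcript. In all 4 groups Arrdc3 was highest, followed by Pdzk1ip1 and then Smim1, and Adh6a was lowest. The place of Smim1 rests on the length used, since the median of its 13 coding transcripts was 839 bases while its exons together cover 5761 bases. Arrdc3 averaged 1904 normalised read counts per kb in Eed KO and 3351 in Eed control, and 366 in Ring1a/b 2KO and 754 in Ring1 control. Adh6a averaged 54.1 per kb in Eed KO and 103 in Eed control, and 15.3 in Ring1a/b 2KO and 86.9 in Ring1 control. Kctd12 and Dnase1l3 were next to each other in every group, and Kctd12 was the higher in Eed KO (109 against 86.4 per kb) and in Ring1 control (124 against 112), but the lower in Eed control (226 against 277) and in Ring1a/b 2KO (35.0 against 46.8). The libraries of Kctd12 and Dnase1l3 overlapped per kb in all 4 groups, so their order was not settled by these data. Among the other neighbours in this order, the libraries overlapped for Arrdc3 and Pdzk1ip1 in Ring1a/b 2KO, for Pdzk1ip1 and Smim1 in Ring1 control, and for Adh6a and the gene above it in all 4 groups.

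The 6 genes lie on 4 chromosomes (mm10, GENCODE M21). Kctd12 is at chr14:102976581-102982637 on the minus strand and Dnase1l3 at chr14:7964533-7994573, also minus. Smim1 is at chr4:154020470-154026230 (minus) and Pdzk1ip1 at chr4:115088708-115093899 (plus). Arrdc3 is at chr13:80883384-80896042 (plus) and Adh6a at chr3:138313286-138331134 (plus), inside the alcohol dehydrogenase cluster with Adh7, Adh1, Adh6b, Adh4 and Adh5. Of the exon bases of Kctd12, 64.2% are shared with exons of the antisense gene Gm26778 and with Mir5130, and of those of Smim1 18.1% with exons of Lrrc47 on the other strand. No source used here says whether the kit marked strand, so reads from the shared stretches may not be told apart from those of the antisense partners. Counting both strands, 63.4% of the 31-base words of Kctd12 transcripts and 16.8% of those of Smim1 also occur in transcripts of other genes. Lrrc47 itself had 3739, 2381 and 2868 normalised read counts in Eed KO and 2853, 4760 and 2631 in Eed control, and 665 and 701 in Ring1a/b 2KO and 518 and 555 in Ring1 control. Its Eed groups overlapped and its Ring1a/b 2KO libraries were the higher ones, unlike Smim1. Of the 31-base words of Adh6a transcripts 1.47% also occur in transcripts of other genes, most of them in Adh6b.

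The libraries differed in how low the 6 genes were. Taken as log2 differences from the mean of its own controls, the median of the 6 genes was -1.16, -0.88 and -0.82 in the Eed KO libraries and -0.08, -0.29 and 0.17 in the Eed controls. It was -0.82 and -2.28 in the Ring1a/b 2KO libraries and 0.24 and -0.24 in the Ring1 controls. Ring1a/b 2KO library 2, the shallowest, was thus the lowest of all. Among the controls the genes did not all follow their median, since Adh6a was at 1.34 and Smim1 at -0.02 in Eed control library 3, and Adh6a at -0.89 and Pdzk1ip1 at 0.14 in Eed control library 2.

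**Figure D4:**
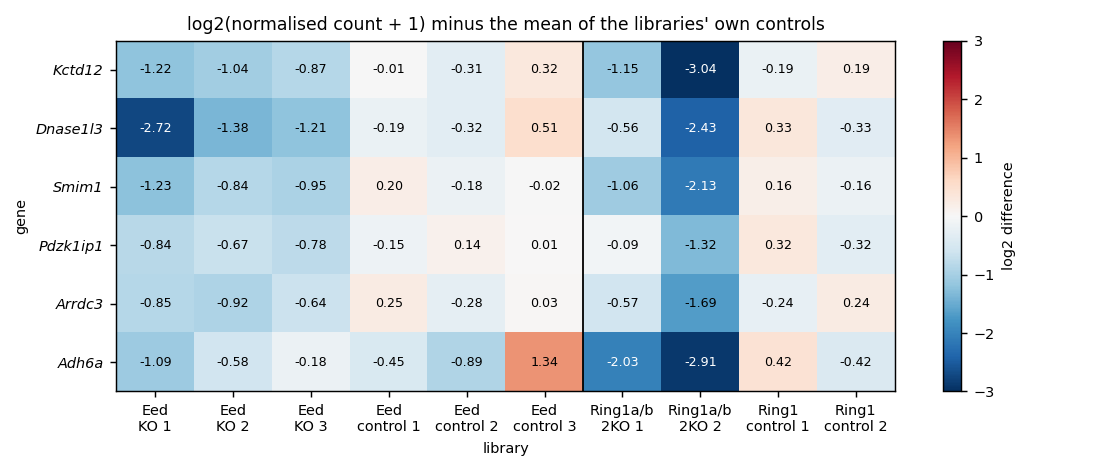
Heat map of the log2 difference of each gene (rows) in each library (columns) from the mean of the controls of its table, blue for lower and red for higher, with knockout libraries left of their controls. Ring1a/b 2KO library 2 has the lowest median, -2.28, and the red cell of Adh6a, 1.34, is Eed control library 3.

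As a description over the 10 libraries, with values centred on the mean of each table, Pearson's r between pairs of the 6 genes ran from 0.645 to 0.966 over the 15 pairs, with a median of 0.836. After the mean of each of the 4 groups was removed it ran from 0.292 to 0.916, with a median of 0.733. Without Ring1a/b 2KO library 2 it ran from 0.389 to 0.933, with a median of 0.732, and with group means removed as well from -0.85 to 0.768, with a median of 0.356 and 12 of 15 pairs above 0. With that library left out, the other Ring1a/b 2KO library is alone in its group, and removing the group mean sets it to 0. The whole Ring1a/b 2KO group thus drops out of the last values. Their difference from the earlier ones cannot be credited to that 1 library alone. The libraries of a pair share depth, normalization and genotype, and the 6 genes were chosen for the same direction, so no test is given. Kctd12 and Arrdc3 were the closest pair, at 0.966, and at 0.916 within groups, or 0.711 within groups without that library. By the same measure over 11036 genes, the genes most like Kctd12 were Asxl1 at 0.976, Fbxo38 at 0.975 and Lrrc7 at 0.972. Those most like Dnase1l3 were Dab1 at 0.985, Pla2g2f at 0.978 and Arl13b at 0.965, and those most like Smim1 were Elf2 at 0.972, Ttc9 at 0.969 and Wwtr1 at 0.957. Only Arrdc3 had another of the 6 genes among its 3 nearest. For Pdzk1ip1 they were Taf7 at 0.978, Tor1aip2 at 0.977 and Pank1 at 0.958, and for Arrdc3 they were Kctd12 at 0.966, Serpinb8 at 0.962 and Nedd4l at 0.959. For Adh6a they were Cdsn at 0.960, Ss18 at 0.946 and Kprp at 0.945. Without Ring1a/b 2KO library 2, 8 of these 18 genes were still among the 3 nearest.

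Other measures also differed between the libraries, and their part in the lower values was not tested. Mitochondrially encoded genes took 3.31%, 3.58% and 2.85% of the counts in Eed KO and 2.34%, 2.81% and 2.51% in Eed control, and 8.16% and 12.7% in Ring1a/b 2KO and 6.51% and 7.28% in Ring1 control. The 25 genes of the immediate early and heat shock response, which is known to follow handling and dissociation of tissue quickly, summed to 827207, 959313 and 1063594 normalised read counts in Eed KO and 1262480, 1210604 and 1168033 in Eed control. In the Ring1 table they summed to 322428 and 60259 in Ring1a/b 2KO and 460596 and 185045 in Ring1 control. The knockout libraries were thus apart from their controls in the mitochondrial share in both tables, and in the immediate early sum in the Eed table but not in the Ring1 table. As a percent of all normalised counts the immediate early genes took 2.18%, 2.83% and 3.31% in Eed KO and 3.75%, 3.06% and 3.54% in Eed control, which overlapped.

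**Figure D5:**
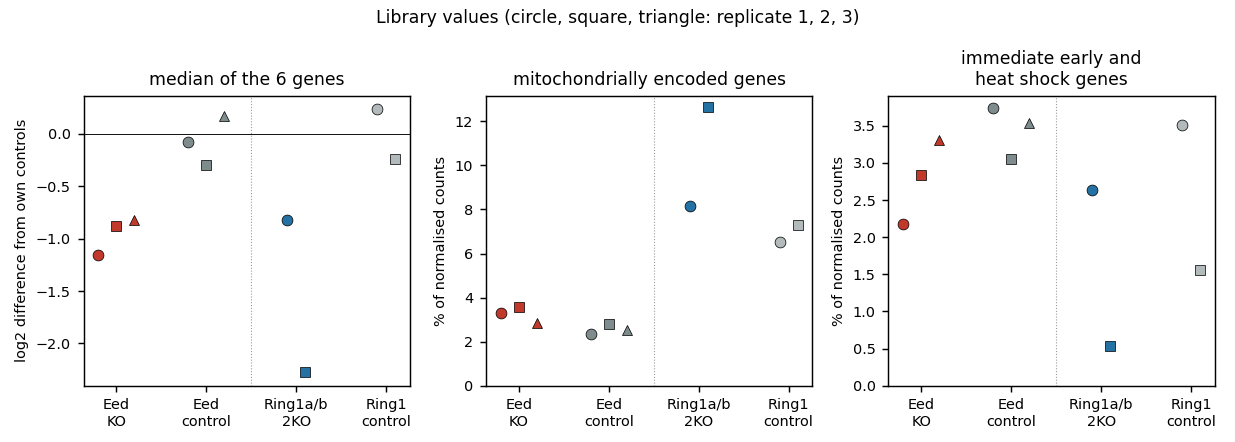
Values of each library by group, with knockout groups left of their controls. Shown are the median log2 difference of the 6 genes, and the percent of normalised counts in mitochondrially encoded genes and in immediate early and heat shock genes. Ring1a/b 2KO library 2 has the lowest median, -2.28, the highest mitochondrial share, 12.7%, and the lowest immediate early share, 0.539%.

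The libraries also differed in reads of the Y-linked genes Ddx3y and Eif2s3y. Their summed normalised read counts were 14.4, 4743 and 26.8 in Eed KO and 5804, 4058 and 25.3 in Eed control, so both levels occur in both groups. In the Ring1 table they were 9.27 and 50.2 in Ring1a/b 2KO and 1665 and 630 in Ring1 control. The Y-linked level and the genotype therefore cannot be told apart there. This holds for Uty, also Y-linked, the only gene that limma called lower in that table. Among the Eed libraries with high Y-linked counts, 1 Eed KO against 2 Eed controls, 5 of the 6 genes were lower and Adh6a differed by 0.09 on the log2 scale. Among those with low counts, 2 Eed KO against 1 Eed control, all 6 were lower, from -0.78 for Arrdc3 to -2.48 for Dnase1l3.

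Markers of hair follicle cells lay on the higher side in both knockouts. All 10 tested hair follicle markers were above 0 in Eed KO (median 0.98, 4 at an unadjusted limma p under 0.05, 0 called by limma, 1 called higher in the authors' deposited table), and 8 of 9 in Ring1a/b 2KO (median 0.92, 3 called higher there). Krt27, a hair follicle keratin, had 24.9 to 115 normalised read counts in Eed KO and 0 to 9.10 in Eed control. The authors' deposited adjusted p of Krt27 was 0.0451 in Eed KO and 0.930 in Ring1a/b 2KO. Fibroblast markers were above 0 for 6 of 8 in Eed KO (median 0.46) and for 6 of 7 in Ring1a/b 2KO (median 0.52). Langerhans and other myeloid markers, Epcam among them, were below 0 for 8 of 14 in Eed KO (median -0.05). In Ring1a/b 2KO 9 of 11 myeloid markers were below 0 (median -0.89), with 3 lower and 2 higher without overlap. No myeloid marker had an unadjusted limma p under 0.05 in either knockout. Summed over each list, markers overlapped between Eed KO and Eed control for all 8 lists of cells other than keratinocytes. The hair follicle sum was 40690, 11955 and 18159 in the Eed KO libraries and 10775 to 14114 in Eed control. That of fibroblast markers was 5066 to 8944 in Eed KO and 4177 to 6370 in Eed control. In the Ring1 table the sum of T cell markers was 1425 to 1470 in Ring1a/b 2KO and 1544 to 1733 in Ring1 control, that of melanocyte markers 348 to 635 in Ring1a/b 2KO and 243 to 311 in Ring1 control, and that of hair follicle markers 6683 to 9980 in Ring1a/b 2KO and 4209 to 5217 in Ring1 control. The T cell markers did not follow their sum, since 4 of 6 tested were above 0 (median 0.37). Of these 6, 2 were lower and 3 higher without overlap. Basal keratinocyte markers summed to 281816 to 325281 in Ring1a/b 2KO and 336989 to 408687 in Ring1 control. The sums of T cell, melanocyte, hair follicle and basal keratinocyte markers did not overlap, 4 of the 10 lists. Of these, the T cell and basal keratinocyte sums were lower in Ring1a/b 2KO, and the melanocyte and hair follicle sums were higher. Among all genes tested in that table, 21.5% were lower without overlap. The share that were higher without overlap was not counted, so nothing is read from these 4 lists. Cd207, which marks Langerhans cells, had 65.9, 19.7 and 107 normalised read counts in Eed KO and 28.2, 21.3 and 250 in Eed control, and 2.47 and 1.79 in Ring1a/b 2KO and 9.38 and 6.65 in Ring1 control. Like Adh6a, Cd207 was highest of the Eed libraries in Eed control library 3. The part of these cells in the lower values was not tested.

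The other genes of the pathways around the 6 were read from 10 lists written from general knowledge. Of the 142 genes on them, 130 were tested in the Eed table and 128 in the Ring1 table, and limma called none at an adjusted p of 0.05 in either, with 8 (6.15%) and 26 (20.3%) at an unadjusted p under 0.05. Over all tested genes 4.73% in the Eed table and 10.4% in the Ring1 table, 1597 of 15310, were under that p. Medians below are of fitted log2 fold changes, and over all tested genes their median was 0.008 in Eed KO and -0.0006 in Ring1a/b 2KO.

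The GABA-B receptor and KCTD list showed no common direction in Eed KO, with 6 of 13 genes below 0 and a median of 0.02 that took both signs when 1 library was left out. For Ring1a/b 2KO 10 of 11 were below 0, with a median of -0.31, or -0.13 without Ring1a/b 2KO library 2, and 7 lay below both controls, where 21.5% of all tested genes did. Gabbr1, the ligand-binding receptor subunit, had 460 to 1049 normalised read counts in Eed KO and 799 to 1476 in Eed control, and 512 to 540 in Ring1a/b 2KO and 545 to 819 in Ring1 control. Cul3, the ubiquitin ligase scaffold that many KCTD proteins bind, differed by -0.19 (SE 0.177) in Eed KO and -0.38 (SE 0.229) in Ring1a/b 2KO on the log2 scale. Neither Gabbr1 nor Cul3 passed limma's test.

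Among alpha-arrestins and their partners, 9 of 13 genes were below 0 in Eed KO (median -0.06) and 10 of 13 in Ring1a/b 2KO (median -0.19). The median was 0.02 without Eed KO library 1 in the Eed table, and in the Ring1 table -0.07 without Ring1a/b 2KO library 2 and -0.41 without Ring1a/b 2KO library 1. Txnip, the alpha-arrestin that limits glucose uptake, had 6093 to 21892 normalised read counts in Eed KO and 10438 to 62854 in Eed control, and 1590 to 1957 in Ring1a/b 2KO and 2205 to 4251 in Ring1 control. Nedd4l, a ubiquitin ligase, differed by -0.63 (SE 0.230) in Eed KO and by -0.87 (SE 0.286) in Ring1a/b 2KO, with limma adjusted p of 0.943 and 0.380. Nedd4, its close relative, differed by 0.16 (SE 0.230) in Eed KO and -0.06 (SE 0.205) in Ring1a/b 2KO. Itgb4, an integrin whose removal from the membrane Arrdc3 is known to promote, differed by 0.09 (SE 0.222) in Eed KO and -0.47 (SE 0.204) in Ring1a/b 2KO.

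Of the red cell membrane and blood group genes, 3 of 8 were below 0 in Eed KO (median 0.14) and 4 of 9 in Ring1a/b 2KO (median 0.30). The Ring1 median was 0.14 without Ring1a/b 2KO library 2, -0.20 without Ring1 control library 1 and -0.02 with no filter on the mean, so the list had no settled direction. Xk, which encodes the Kell-associated membrane protein, had 81.0 to 122 normalised read counts in Ring1a/b 2KO and 4.99 to 9.38 in Ring1 control, a log2 fold change of 3.67 (SE 0.638). Its adjusted p was 0.131 by limma and 8.18e-05 in the authors' deposited table, the 1 gene of this list called there. In Eed KO Xk had 8.68 to 29.0 and in Eed control 3.03 to 5.07. Of the PDZK1 partners, 3 of 7 were below 0 in Eed KO (median 0.01) and 1 of 5 in Ring1a/b 2KO (median 0.20, or -0.02 without Ring1a/b 2KO library 1). The Eed median was as low as -0.45 without Eed control library 1. Pdzk1 itself was close to the detection limit, at 4.73 to 7.26 in Eed KO and 0.974 to 19.3 in Eed control.

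Of the other deoxyribonucleases, 8 of 10 were below 0 in Eed KO and 6 of 10 in Ring1a/b 2KO, with a median of -0.12 in both. The Ring1 median was 0.05 without Ring1a/b 2KO library 2 and -0.47 without Ring1a/b 2KO library 1. Trex2, an exonuclease of keratinocytes, had 62.3 to 98.3 normalised read counts in Eed KO and 127 to 276 in Eed control, without overlap, at a log2 fold change of -1.09 (SE 0.413) and a limma adjusted p of 0.967. In the Ring1 table Trex2 had 14.3 to 29.05 in Ring1a/b 2KO and 24.9 to 38.55 in Ring1 control, which overlapped. Of the alcohol and retinol dehydrogenases, 7 of 13 were below 0 in Eed KO (median -0.05, or 0.03 without Eed KO library 2) and 9 of 14 in Ring1a/b 2KO (median -0.18, or -0.10 without Ring1a/b 2KO library 2, -0.46 without Ring1a/b 2KO library 1 and -0.04 without Ring1 control library 1). Adh6b, the neighbour of Adh6a in the cluster, had 57.6 to 239 in Eed KO and 190 to 261 in Eed control, and 28.7 to 50.7 in Ring1a/b 2KO and 51.5 to 76.05 in Ring1 control. Adh7, which acts on retinol in surface epithelia, differed by -0.41 (SE 0.238) in Eed KO and -0.31 (SE 0.217) in Ring1a/b 2KO.

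Keratinocyte genes gave the setting in which the 6 were lower. Of 12 basal keratinocyte genes, 7 were below 0 in Eed KO (median -0.11, or 0.07 without Eed control library 2) and 10 in Ring1a/b 2KO (median -0.49, or -0.27 without Ring1a/b 2KO library 2). Of the 12, 1 lay below every Eed control, where 4.15% of all tested genes did. For Ring1a/b 2KO 7 of the 12 lay below both controls, where 21.5% of all tested genes did. There 6 of the 12 had an unadjusted limma p under 0.05, where 10.4% of all tested genes did, and none had in Eed KO. Krt14, a basal keratin, differed by 0.14 (SE 0.355) in Eed KO and 0.15 (SE 0.281) in Ring1a/b 2KO. It was 1 of the 2 above 0 in Ring1a/b 2KO. Of 15 differentiation genes, 12 were below 0 in Eed KO (median -0.52, or -0.31 without Eed KO library 1) and 8 in Ring1a/b 2KO (median -0.20, or -0.30 without Ring1a/b 2KO library 2 and 0.05 without Ring1 control library 1). Krt77, a keratin of the layers above the basal one, had 20471 to 40056 normalised read counts in Eed KO and 54201 to 81146 in Eed control, without overlap, as the only 1 of the 15 to lie below every Eed control, where 4.15% of all tested genes did. Krt77 had 1366 to 12594 in Ring1a/b 2KO and 14127 to 17338 in Ring1 control, also apart. Of the 15, 4 were lower and 4 were higher without overlap there, where 21.5% of all tested genes were lower without overlap. The authors' deposited table for Ring1a/b 2KO called Krt1 higher (adjusted p 0.00247) and Lor, the cornified envelope protein loricrin, lower (adjusted p 0.00592), and limma gave 0.184 and 0.356.

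The immediate early and heat shock genes were below 0 for 21 of 25 in Eed KO (median -0.34) and for 24 of 25 in Ring1a/b 2KO (median -1.05). Without Ring1a/b 2KO library 2 the Ring1 median was 0.18, so its sign was not kept, and without Ring1a/b 2KO library 1 it was -2.39. The sum of the list was higher in library 1 than in library 2 of both Ring1 groups, so these fits are unbalanced in that respect. Of the 25, 8 lay below every Eed control, where 4.15% of all tested genes did, and 0 lay below both Ring1 controls, where 21.5% did. Zfp36, which destabilises messenger RNAs of cytokines, had 93728 to 151917 normalised read counts in Eed KO and 162295 to 217184 in Eed control, and 3756 to 39110 in Ring1a/b 2KO and 14467 to 59589 in Ring1 control. Of the glucocorticoid and FOXO response genes, 10 of 15 were below 0 in Eed KO (median -0.29, or 0.10 without Eed KO library 2) and 12 of 15 in Ring1a/b 2KO (median -0.49, or -0.16 without Ring1a/b 2KO library 2). Per1, a clock gene that glucocorticoids induce, had 1303 to 9949 in Eed KO and 2683 to 11180 in Eed control, and 416 to 421 in Ring1a/b 2KO and 645 to 924 in Ring1 control. Per1 spread widely within the Eed groups and was apart in the Ring1 table, with a limma adjusted p of 0.286.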

How the data were processed

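Deposited tables held normalised read counts per gene for 10 libraries, a signal or coverage unit, from reads quantified with kallisto 0.42.5 and normalized with DESeq2 3.11 on mm10, per the submitters' processing notes. The authors' deposited log2 fold changes, p-values and test scores were used as they stand. RNA (10 ng) was amplified before sequencing, per the labels' protocols, so several reads can stem from 1 molecule and counting error is understated. No sample column was left unmapped.

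limma 3.58.1 (trend, robust; R 4.3.3) was fitted to log2(value + 1) over all genes with a mean of at least 5, each table on its own, with Benjamini-Hochberg adjustment at 0.05, and checked on simulated data. Standard errors are limma's. Folds are ratios of group means. Reads were recovered as whole multiples within 1e-06, and DESeq2 1.42.0 and edgeR 4.0.16 were run on those of the Ring1 table. The 6 genes and the 10 gene lists were chosen with earlier results of these data known. Named list genes came from the 3 with the highest mean in a list and those called. Gabbr1, Nedd4l, Xk in Eed KO, Pdzk1, Trex2, Adh6b, Elmod1, Nr1d1, Il6ra, Itih5, Lrrc47, Krt27, Itga6, Cd207 and Uty were named after seeing their values. So were the measures of promoters, overlapping exons, shared 31-base words, correlations without Ring1a/b 2KO library 2 and levels per kb. Alternatives were other filters, pseudocounts, scalings, a replicate block, a Y-linked term and leaving out each library.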

Additional observations from a re-analysis of the deposited data

How the results depend on the processing

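Of the fitted log2 fold changes of the 6 genes, 89 of 90 under the alternatives for the Eed table and 84 of 84 for the Ring1 table kept their sign. The exception was Adh6a in Eed KO, whose values ran from -1.07 to 0.053 when 1 library was left out, the last without Eed control library 3. The number of genes called by limma in Eed KO was 0, with 127 in the authors' deposited calls and 0 to 4 when 1 library was left out. In Ring1a/b 2KO it was 6, with 10 under no filter on the mean, 231 in the authors' deposited calls, 231 by DESeq2 on recovered reads, 6 by edgeR and 0 to 565 when 1 library was left out. A lone library left in a group was taken to vary like the other group. With the replicate number as a block the calls were 1 in Eed KO and 36 in Ring1a/b 2KO. The main fits did not pair the libraries by number, and the labels do not say whether the numbers pair them. Same-numbered deviations correlated at -0.11, 0.15 and 0.21 in the Eed table, and differently numbered ones at -0.23 to 0.11. In the Ring1 table they correlated at 0.14 and -0.14, which with 2 libraries in a group are a single value mirrored. Library 1 was the deeper one in both Ring1 groups. These values do not settle whether the libraries are paired. The count of the 6 genes lower without overlap was 5 in each knockout, 5 throughout in Eed KO and 5 to 6 in Ring1a/b 2KO when 1 library was left out, and 5 in total-read scaling, an alternative chosen after seeing the data. DESeq2 and edgeR were not run on the Eed table, where 1 library's read step was too close to 1 to be checked, and a Y-linked term could not be fitted in the Ring1 table. Of the list medians, 149 of 150 alternatives in Eed KO and 137 of 140 in Ring1a/b 2KO moved by less than the spread between libraries, though several near 0 changed sign; the 4 others were the basal keratinocyte genes without Eed control library 2 (0.07) and without Ring1a/b 2KO library 2 (-0.27), and the glucocorticoid and FOXO response genes without Ring1a/b 2KO library 1 (-0.80) and without its library 2 (-0.16). Depth limits Adh6a most, with 11 reads in Ring1a/b 2KO library 2.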
